A study of Homo sapiens with 8 samples.

Results

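OCAB-only regions are stretches of the genome of 697 cells where chromatin immunoprecipitation followed by sequencing (ChIP-seq) gave an OCAB peak and no peak of AIOLOS, IKAROS, MTA2, Mi2, HDAC2 or OCT2. They were found by merging the peaks of the 7 deposited lists that overlap by at least 1 bp and keeping each merged region whose peaks came from the OCAB list alone. This left 1209 of the 74123 merged regions, and 27.2% of the 4438 regions that hold OCAB (95% Wilson interval 26.0 to 28.6). Of all merged regions, 44.7% held a single list. The members were chosen by the peak calls of all 7 lists, so their OCAB values are given as a description and their lack of other peaks is not a result.

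697 is an established line grown from a human pre-B cell leukaemia. The series holds 8 libraries of it: 1 per antibody (from Santa Cruz for OCAB and OCT2, from Abcam for the others) and 1 input made without antibody. AIOLOS and IKAROS are zinc finger factors of lymphoid cells, and MTA2, Mi2 and HDAC2 are subunits of the NuRD chromatin remodelling complex. The labels give no difference in genotype or treatment between the libraries, and no antibody has a replicate, so no value carries a replicate error. Intervals of shares and of tag counts cover counting error only, with regions or reads taken as independent. The interval of the median height reflects the spread between regions of 1 library. Reads amplified over 15 PCR cycles without molecular identifiers are not independent molecules. The OCAB library held 17.6 M tags (aligned reads), recovered from the deposited columns. The other libraries with an unscaled tag column ranged from 10.9 M (HDAC2) to 18.5 M (Mi2).

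OCAB, also called OCA-B and encoded by POU2AF1, is a coactivator found mainly in B cells. It does not bind DNA well by itself. It joins the POU domain of OCT1 or OCT2 on the octamer, a short sequence known from the promoters of immunoglobulin V genes and of histone H2B genes. Of these octamer factors OCT2 was analysed here; OCT1 was not analysed here.

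Standing alone was neither rare nor universal among the lists. The share of regions without a peak of another list was 42.7% for Mi2, 30.3% for IKAROS, 15.3% for HDAC2, 14.7% for MTA2, 10.1% for OCT2 and 9.57% for AIOLOS. The OCAB share of 27.2% thus lay between those of IKAROS and HDAC2 and above that of OCT2. It was 65.7% when the 2000 highest peaks of every list, OCAB included, were used, and the shares of the other lists were not recomputed under that setting, so their order holds for the full lists only. The OCAB list, with 4440 peaks, is the shortest of the 7. Lists differ in length and calling limits, and a region stands alone more easily when the other lists are short, so these shares are set side by side without a test.

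OCAB signal was lower in the OCAB-only regions than elsewhere in the OCAB list. Height is the deposited normalised tag number, scaled to a library of 10 M tags. It ran from 6.27 to 220.5 in the 1209 OCAB-only peaks, with a median of 13.7, and from 6.84 to 355 in the other 3231 OCAB peaks, with a median of 17.1. The ratio of the medians was 0.801 (95% order statistic interval 0.766 to 0.830, with the median of the other peaks held fixed). The ranges overlapped almost wholly, and the sets differed most among high peaks: 36 OCAB-only regions (2.98%) passed a height of 50, against 330 of the other OCAB regions (10.2%), and 8 against 93 passed 100. In tags, the median OCAB-only peak rested on 24 tags and the lowest on 11, so the height of a typical member is known only roughly.

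The share of OCAB peaks that stood alone was lower in each higher bin of OCAB height. It was 37.4% at heights up to 12 (34.8 to 40.1), 28.9% from 12.5 to 16 (26.2 to 31.7), 24.5% from 16.5 to 24.5 (21.9 to 27.2) and 16.1% from 25.1 upwards (14.1 to 18.5). In the medians, the step lay between OCAB alone and OCAB with any partner, rather than growing with the number of partners. The median OCAB height was 13.7 with no other list, 16.5 with 1 other list and between 16.5 and 17.1 with 2 to 6 other lists. The 90th percentile did vary with that number. It was 29.6 with no other list, 40.26 with 1, 49.85 with 2 and 46.82 with 3. It was 60.04 with 4, 57 with 5 and 39.2 with all 6.

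**Figure D1:**
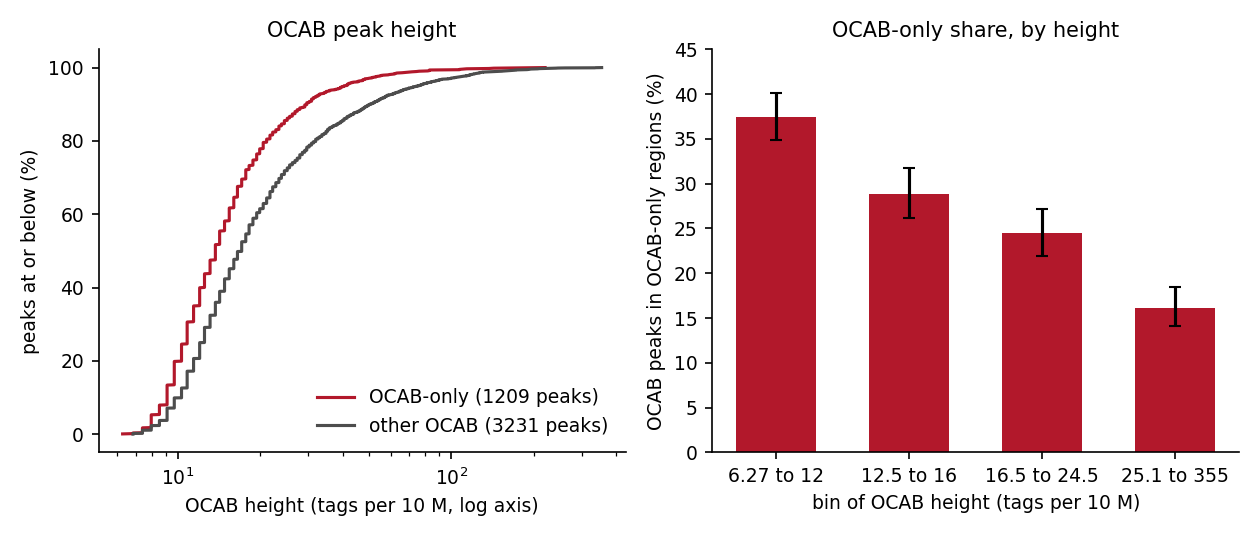
Left, the cumulative share of OCAB peaks (y axis, percent) at or below each OCAB height (x axis, tags per 10 M, log scale), for OCAB-only and other OCAB peaks. Right, the share of OCAB peaks that lie in OCAB-only regions (y axis, percent, bars with 95% Wilson intervals) in 4 bins of height, falling from 37.4% to 16.1%.

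The input signal was also lower in the OCAB-only regions. The deposited input tags, scaled to the OCAB library, had a median of 1.7 (10th to 90th percentile 0.72 to 4.1) in OCAB-only peaks and 2.5 (0.8 to 5.8) in the other OCAB peaks. With less input beneath them, the OCAB-only peaks had the higher median fold over input, 13.7 against 11.9, despite their lower height. Input this low amounts to a few tags per peak, so a single fold is imprecise. Fold over the surrounding region had close medians in both sets, 9.69 and 9.89. Its 90th percentile was 19.0 in OCAB-only peaks and 26.3 in the others, and its highest value 528.57 and 141.26.

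The shape of the OCAB-only peaks was like that of the rest of the list. The median focus ratio, the share of tags placed as a single bound point would place them, was 0.800 in OCAB-only peaks and 0.778 in the others. Clonal fold change, which rises where tags pile up on identical positions, had medians of 0.97 and 0.96 and reached 1.53 and 1.7. The 3 OCAB-only regions with the most input were on chromosome 1 (203594825 to 203595091), chromosome 5 (158246167 to 158246433) and chromosome 8 (141477393 to 141477659). Their input tags were 10.7, 10.7 and 9.9 beneath OCAB heights of 35.3, 24.5 and 28.5. Among the other OCAB peaks input reached 30.6, so no OCAB-only region came near the highest input of the list.

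**Figure D2:**
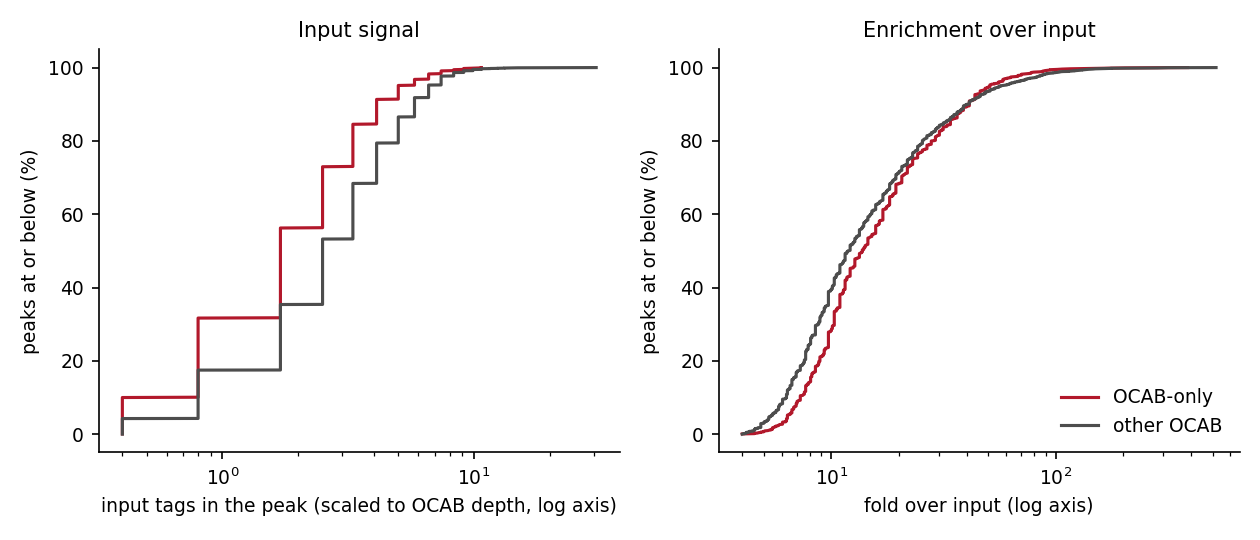
Cumulative share of OCAB peaks (y axes, percent) by input tags in the peak (left, scaled to the OCAB depth) and by fold over input (right), both on log x axes. The OCAB-only curve lies to the left for input (median 1.7 against 2.5) and to the right over most of the range for fold (median 13.7 against 11.9).

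Because of a tie, 11 regions made up the 10 highest OCAB-only peaks. Coordinates here and below are those of the deposited lists, on build hg19. The highest lay on chromosome 16, 89008433 to 89008699, with a height of 220.5 from 387 tags (exact Poisson 95% interval 349 to 428). Its input was 5 tags, its fold over input 78.1, and the nearest peak of any other list, of IKAROS, was 2567 bp away. The next lay on chromosome 12, 99038936 to 99039202, with a height of 182.3 from 320 tags (286 to 357) over 0.8 input tags, a fold of 387.4. An AIOLOS peak began 122 bp from its edge, while the nearest OCAB peak was 489117 bp away.

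The other high members ranged from 83.2 to 143 in height. On chromosome 17, 41465575 to 41465841, the OCAB height was 143, with AIOLOS 212 bp away. A second region of chromosome 16, 84697428 to 84697694, had a height of 137.3 and no other list within 8289 bp. Chromosome 11, 695357 to 695623, reached 114, with MTA2 884 bp away, and chromosome 5, 140890787 to 140891053, reached 111.1, with IKAROS 1838 bp away. Heights of 107.1 were found on chromosome 1, 6052508 to 6052774, 9466 bp from MTA2, and on chromosome 12, 57636488 to 57636754, 663 bp from MTA2. The tied height of 83.2 was found on chromosome 20 (43275527 to 43275793), chromosome 6 (26124132 to 26124398) and chromosome X (63425588 to 63425854).

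These high peaks were well formed and, like most OCAB-only regions, mostly far from other OCAB sites. Focus ratios of the 11 ran from 0.724 to 0.953, clonal fold change from 0.82 to 1.01 and fold over input from 20.7 to 387.4. In 10 of the 11, the nearest other OCAB region lay over 10000 bp away, and in 8 the nearest OCT2 peak did. Such distances were usual among members. Of all OCAB-only regions, 3.64% had another OCAB-only region within 10000 bp, 7.78% a shared OCAB region and 21.3% an OCT2 peak. Yet 7 had a peak of some other list within 1000 bp, against 31.8% of all OCAB-only regions.

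OCAB-only regions lay in neighbourhoods that the other proteins also used. The nearest peak of another list was a median of 3343 bp away, edge to edge. It was within 1000 bp for 385 regions (31.8%, 29.3 to 34.5), within 10000 bp for 847 (70.1%, 67.4 to 72.6) and within 100000 bp for 1162 (96.1%, 94.9 to 97.1). For the shared OCAB regions the nearest other region with a list besides OCAB was a median of 3604 bp away, within 1000 bp for 29.1% (27.5 to 30.7) and within 10000 bp for 76.0% (74.5 to 77.5). The OCT2-only regions, 818 in number, had a median distance of 1817 bp and 42.9% within 1000 bp (39.6 to 46.3). For Mi2-only regions the median was 4613 bp with 30.7% within 1000 bp (29.4 to 32.1), and for IKAROS-only regions 10310 bp with 15.5% (15.0 to 16.1). A peak within 100000 bp was usual in all of these sets: 94.9% of OCT2-only, 97.8% of Mi2-only and 93.5% of IKAROS-only regions had one. The distance depends on the lists left to measure to: IKAROS-only regions are measured to lists without IKAROS, the longest.

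**Figure D3:**
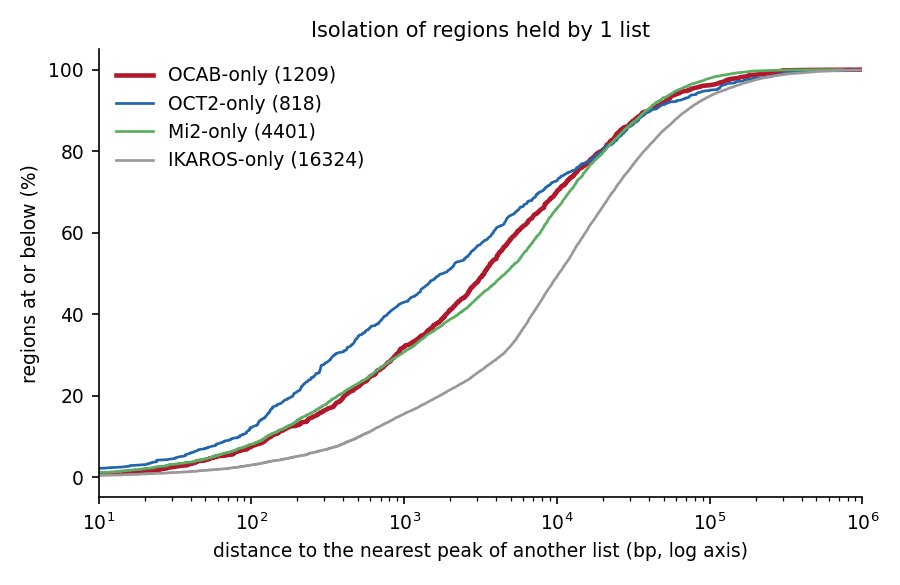
Cumulative share of regions (y axis, percent) by distance to the nearest peak of another list (x axis, bp, log scale) for regions held by OCAB, OCT2, Mi2 or IKAROS alone, with the number of regions in brackets. OCAB-only regions (median 3343 bp) run close to Mi2-only regions (4613 bp) below 1000 bp and lie between the OCT2-only (1817 bp) and IKAROS-only (10310 bp) curves at their medians.

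By protein, IKAROS, the longest list, lay nearest most often. It held the nearest peak of 41.3% of OCAB-only regions and made up 34.7% of the peaks of the other 6 lists. AIOLOS held the nearest peak of 17.9% (24.5% of peaks), MTA2 of 14.4% (18.5%), HDAC2 of 10.6% (10.4%), Mi2 of 10.3% (6.63%) and OCT2 of 5.96% (5.23%). The nearest peak of OCT2, the factor that can carry OCAB to the octamer, was a median of 58078 bp away, and 85 of 1208 regions (7.04%, 5.73 to 8.62) had one within 1000 bp. Mi2, also a short list, was like it, with a median of 48866 bp and 69 regions (5.71%) within 1000 bp. Conversely, 30 of the 818 OCT2-only regions had an OCAB peak within 1000 bp (3.67%, 2.58 to 5.19).

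The 85 OCAB-only regions beside OCT2 had the highest median OCAB height of the groups formed by a neighbouring protein. That median was 19.4 and their 90th percentile 51.1, against 13.7 and 27.2 in the 1124 OCAB-only regions with no OCT2 peak so close. Medians beside the other proteins were closer to that of the remaining members: 15.4 beside Mi2 and HDAC2, 14.8 beside MTA2 and AIOLOS, and 14.2 beside IKAROS. A raised upper end was not particular to OCT2. The 90th percentile was 46.7 beside Mi2, 43.3 beside MTA2, 39.3 beside AIOLOS, 37.9 beside HDAC2 and 35.8 beside IKAROS. The highest peak was 83.2 beside OCT2 and 182.3 beside MTA2, HDAC2, IKAROS and AIOLOS. These groups overlap, since a region can lie beside several proteins. The OCT2 peaks lay 19 to 963 bp from the edge, with a median of 317 bp. Of the 85, 14 were on chromosome 6, which is 18.7% of the OCAB-only regions there, and 12 on chromosome 1 (8.51%).

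Distance from other proteins went with lower OCAB peaks. OCAB-only regions with another list within 1000 bp had a median height of 14.8 and a 90th percentile of 39.3. Those farther away but within 10000 bp had 14.2 and 28.5, those beyond that but within 100000 bp 12.5 and 21.7, and the 47 regions farther than 100000 bp had 12.0 and 19.5. Median input tags went down with distance too, from 2.5 to 1.7, 1.7 and 0.8, and median fold over input was 13.3, 13.3, 14.1 and 18.2. The part of the input level in these heights was not tested. The most isolated member was on chromosome 7, 9528228 to 9528494, with a height of 10.8. The next were on chromosome 18, 63864169 to 63864435, with a height of 8.55 and no other list within 442932 bp, and on chromosome 4, 95517037 to 95517303, with a height of 22.2 and no other list within 305105 bp.

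At the edge of the overlap rule, members and non-members had like heights. The 51 OCAB-only regions with another list's peak within 50 bp had OCAB heights from 7.41 to 66.1 with a median of 16.5. The 89 OCAB regions that missed membership through an overlap of at most 50 bp had heights from 7.41 to 192 with a median of 16.0.

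OCAB-only regions were spread over all chromosomes from 1 to 22, X and, with 1 region, Y. Leaving out Y, with its single OCAB region, the share of OCAB regions that were OCAB-only ranged from 18.1% on chromosome 19 (13.5 to 23.7) and 19.0% on chromosome 22 (13.3 to 26.4) to 42.5% on chromosome 4 (35.6 to 49.8). Chromosome 4 held 6.37% of OCAB-only regions but 3.22% of the other OCAB regions. For chromosome 19 these shares were 3.23% and 5.48%, and for chromosome 17 they were 3.72% and 5.51%.

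Across the 23 chromosomes without Y, the OCAB-only share was lower where regions of the other proteins were denser. Chromosome 19 carried 58.3 regions with another list per Mb and chromosome X 10.5. Spearman's rho between density and share was -0.89 and Pearson's r -0.78. Without chromosomes 19 and 22, the densities farthest from the median, they were -0.85 and -0.78. The other lists set both quantities, so a relation of this kind is partly built in. Against this same density, rho was -0.88 for the IKAROS-only share, -0.69 for Mi2-only and -0.45 for OCT2-only. For those lists the density counts their own list-only regions and leaves out OCAB-only ones. It is thus not the density of the other proteins for them, and their values are not like for like with that of OCAB.

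**Figure D4:**
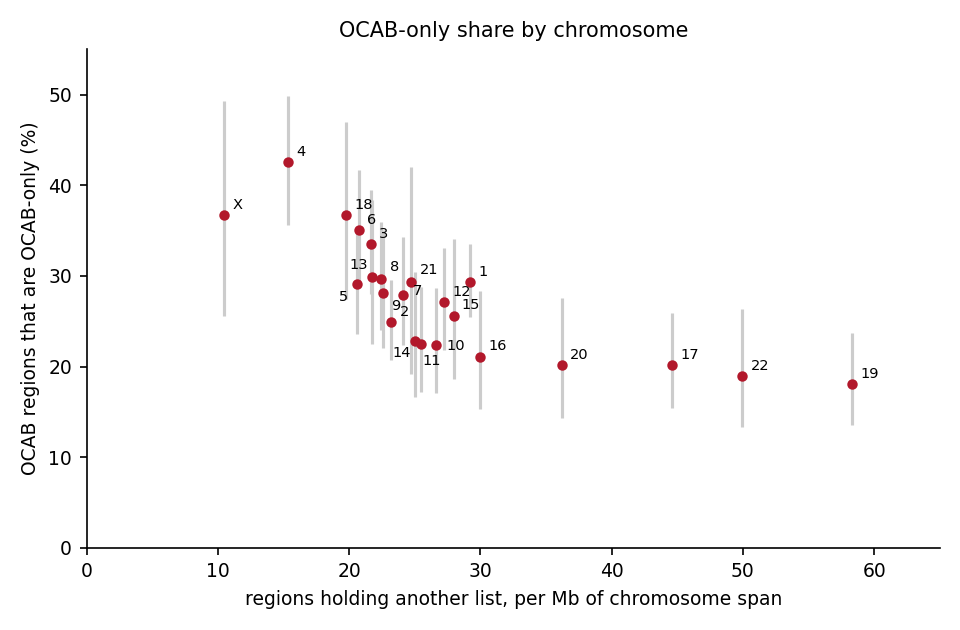
Each point is a chromosome: regions that hold a list other than OCAB per Mb of the span covered by regions (x axis) against the share of its OCAB regions that are OCAB-only (y axis, percent, with 95% Wilson intervals). Shares fall from 42.5% on chromosome 4 to 18.1% on chromosome 19; chromosome Y, with 1 OCAB region, is left out.

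Most OCAB-only regions were single. The nearest other OCAB-only region was a median of 578988 bp away, and 225 of 1208 (18.6%, 16.5 to 20.9) had one within 100000 bp. With neighbours at most 100000 bp apart joined, 984 stood by themselves and 172 formed 86 pairs. Above pairs there were 14 runs: 10 of 3 regions, 1 of 4, 1 of 5 and 2 of 7. When another list within 1000 bp counted as shared, the 18.6% became 11.8%. A shared OCAB region lay within 100000 bp of 36.5% of OCAB-only regions, and 43.6% of shared OCAB regions had another shared one so close. Among the OCT2-only regions, 9.90% had another within 100000 bp. These sets differ in number, and a larger set has closer neighbours, so the shares are given without a comparison.

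A run of 7 lay on chromosome 14, 106994241 to 107253616, ending 32457 bp before the last merged region of that chromosome. As background, the immunoglobulin heavy chain locus is known to lie at the end of the long arm of chromosome 14. In order along the run, the heights were 22.2, 23.4, 12.0, 14.2, 16.5, 17.7 and 12.0, so all were modest, from 21 to 41 tags. The runs begin and end on OCAB-only regions and were picked for holding many of them, so the share of OCAB regions within them that is OCAB-only is raised by how they were drawn. Of the 11 OCAB regions in this span, 7 were OCAB-only. The other 4 had heights from 16.5 to 106, and 3 of them held OCT2. The neighbourhood was not empty of other proteins: 43 merged regions lay in it, of which 26 held IKAROS, 24 AIOLOS and 22 MTA2. HDAC2 was held by 14 of them, OCT2 by 9 and Mi2 by 7. Of all 74123 merged regions, 53933 held IKAROS, 38085 AIOLOS, 28742 MTA2, 16122 HDAC2, 8127 OCT2 and 10302 Mi2. The counts are not read as a trait of this run. Peaks of another list came within 1000 bp of 6 of the 7 members, but OCT2 came no nearer than 1336 bp.

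A second run of 7 lay on chromosome 6, 26032526 to 26285454, on the chromosome whose short arm is known to carry the largest cluster of histone genes. Its OCAB-only peaks were high, at 33, 61, 83.2, 23.4, 31.3, 66.1 and 15.4 in order, with a median of 33 against 13.7 over all OCAB-only regions. Of the 14 OCAB regions of the span, 7 were OCAB-only. All 7 had an OCT2 peak within 1000 bp, at 28 to 657 bp from the edge, where 7.04% of all OCAB-only regions had one. OCT2 was common in this span, held by 15 of its 49 merged regions, against 8127 of all 74123. Nearness to OCT2 is thus not read as a trait of the members apart from their location.

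Going along the chromosome 6 run, the OCT2 peaks nearest to its members had heights of 32.2, 36.6, 93.3, 84.0, 62.7, 25.1 and 36.6 per 10 M tags of the OCT2 library. Heights of different antibodies are not on 1 scale, so the pairs are given without a comparison. All 7 of these OCT2 regions also held AIOLOS, and 5 of them held IKAROS. These are the longest lists, with 38085 AIOLOS and 53933 IKAROS regions. The share of all OCT2 regions that hold them was not computed, so the counts are not read as a trait of this run. In 2 of the 7, at chromosome 6, 26123115 to 26123555 and 26157499 to 26157894, the neighbouring OCT2 region also held its own OCAB peak, with heights of 55.8 and 16.0 beside OCAB-only peaks of 83.2 and 23.4. The OCAB-only peak was thus the higher of both pairs.

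A run of 5 lay on chromosome 2, 89378238 to 89620069, with heights of 34.8, 8.55, 23.4, 30.8 and 12.0. The immunoglobulin kappa locus is known to lie on the short arm of chromosome 2, near the centromere. Here 5 of the 7 OCAB regions were OCAB-only, and the span held 17 merged regions, against 43 and 49 in the runs of 7. Of the 17, 11 held IKAROS, 4 AIOLOS, 2 MTA2, 1 OCT2 and none Mi2 or HDAC2. Of all 74123 merged regions, 53933 held IKAROS, 38085 AIOLOS, 28742 MTA2, 8127 OCT2, 10302 Mi2 and 16122 HDAC2. With so few regions in the span, the counts are not read as a trait of this run. The nearest OCT2 peaks were 47361 to 190643 bp away. Fold over the local region was 130.8, 17.1, 36.5, 37.2 and 127.6 in order, against a median of 9.69 for all OCAB-only peaks. Focus ratios were 0.875 to 0.968. The peaks rested on 61, 15, 41, 54 and 21 tags in order, over 0.4 to 3.3 input tags, so a single fold is imprecise.

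The remaining named runs were a run of 4 on chromosome 12, 25176743 to 25307877, and a run of 3 on chromosome 19, 18417673 to 18550254. Heights were 27.9, 8.55, 18.8 and 14.2 on chromosome 12 and 9.69, 9.69 and 16.0 on chromosome 19. Neither span, drawn from OCAB-only region to OCAB-only region, held a shared OCAB region, and OCT2 peaks lay at least 2903 bp and 9164 bp away. The deposited lists name no genes and no hg19 annotation was used here, so no member of any run was assigned to a gene. The runs were found by counting neighbours and were not tested against chance. They depend on the rules of overlap and calling: when another list within 1000 bp counted as shared, the runs on chromosomes 14, 6 and 2 had 1, 0 and 3 members, and at a fold over input of at least 8 in every list the chromosome 14 run had 4. With the 2000 highest peaks of every list, the chromosome 12 run had 2 members and the chromosome 19 run 0.

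**Figure D5:**
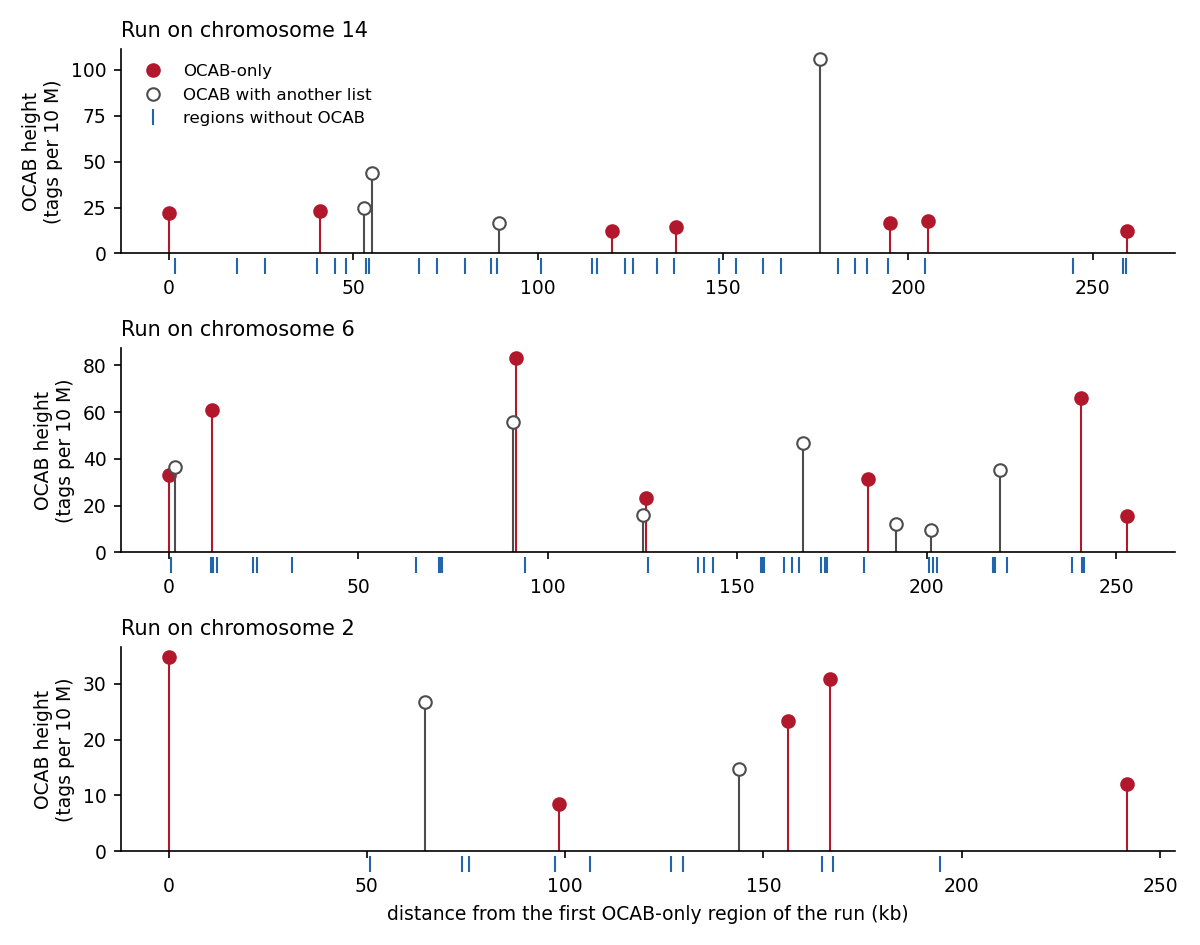
OCAB height (y axes, tags per 10 M) against distance from the first OCAB-only region of the run (x axes, kb) for the 3 longest runs by number of members. Filled points are OCAB-only regions, open points OCAB regions with another list, and ticks below the axis merged regions without OCAB; the chromosome 6 members reach 83.2, and those on chromosome 14 stay at or below 23.4.

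OCAB-only regions also occurred right beside shared OCAB regions. In 18 cases a shared OCAB region lay within 1000 bp, and 10 of those partners held OCT2. The share of all 3229 shared OCAB regions that hold OCT2 was not computed, so this count is not read as a trait of the partners. The OCAB-only peak was the higher in 9 of the 18 and equal in 1. On chromosome 2, 232536455 to 232536721, an OCAB-only height of 82.0 stood 406 bp from a region of height 31.9 that held 5 other proteins besides OCAB. On chromosome 19, 2681673 to 2681939, the order was the opposite, with an OCAB-only height of 25.1 beside a region of 107.7 that held all 7.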

How the data were processed

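Each antibody has a deposited peak list with the columns of HOMER's findPeaks, on hg19. HOMER 4.9.1, Bowtie2 2.3.2.2 and CASAVA (1.8.2, or 1.4 for the HDAC2 library) are named in the submitters' processing notes. Calling parameters are given in the HDAC2 file header alone. Height is the deposited signal; tags are the deposited count of reads in the peak, scaled to the input for IKAROS and MTA2. The folds are deposited ratios, the p-values over input are the authors' Poisson values, the focus ratio is a deposited fraction, and the deposited score was not used. Highest p-values over input were 9.5e-05 for HDAC2 and at most 8.92e-10 in the other lists, so HDAC2 was called more loosely.

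Peaks sharing at least 1 position were merged. Distances run from edge to edge. Depth is the median of tags over height in the highest peaks. Shares have Wilson intervals, tag counts exact Poisson ones. The members and lists were chosen with earlier results of these data known. Named regions are the 10 highest OCAB-only peaks (at least 4-fold over input, chromosomes 1 to 22 and X, ties kept), the 3 with most input, and the 5 runs with most members within 100000 bp, longer spans first; other regions named were chosen after their values were seen. Octamer shares, gene positions and gene lists were planned and not run, since no hg19 sequence or annotation was used here; no sequence is printed for that reason. Merging, distances and runs were tested on simulated peaks. Tables were handled in pandas 2.3.3 (Python 3.11.15), intervals in scipy 1.17.1 and figures in matplotlib 3.10.9.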

Additional observations from a re-analysis of the deposited data

How the results depend on the processing

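The number of OCAB-only regions, 1209, stayed within 1.5 times of that under all 13 alternatives, from 824 when another list within 1000 bp counted as shared to 1727 when sharing needed peak centres within 100 bp. It was 1227 at a fold over input of at least 8, 1274 at a p-value of at most 1e-10, 1257 without the HDAC2 list and 1635 without both IKAROS and AIOLOS. With the 2000 highest peaks of every list it was 1313, out of a shortened OCAB list. How many of the 1209 were kept under any alternative was not counted, so a like count does not show that the same regions remained. Leaving out 1 other list at a time, chosen after the data were seen, gave 1258 (Mi2) to 1398 (IKAROS). The share of OCAB moved more: it was 65.7% with the 2000 highest peaks of every list, an alternative that shortens the OCAB list as well as the others, and the cause was not tested. Under the other 12 alternatives it ran from 18.6% to 38.9%. The ratio of median heights was recomputed under only 4 alternatives: centres, the 1000 bp rule, 8-fold and the p-value limit. Under these the ratio stayed between 0.794 and 0.830. The shares of regions with another list or another OCAB-only region nearby were recomputed under the same 4 only. The share with another list within 10000 bp was 79.0% with centres, 56.1% with the 1000 bp rule and 65.8% at 8-fold, against 70.1%. The share with another OCAB-only region within 100000 bp was 24.6% with centres and 11.8% with the 1000 bp rule. Under that rule the runs on chromosomes 14, 6 and 2 kept 1, 0 and 3 members; with centres the chromosome 6 run had 11. At 8-fold the chromosome 14 run had 4. With 2000 peaks per list, the chromosome 12 run had 2 and the chromosome 19 run 0. The alternatives for octamer share and gene position were not run, since no hg19 sequence or annotation was used. No paired analysis was possible because each antibody has 1 library. A peak resting on 11 tags is near the limit of calling, so a list without a peak in a region does not show that the protein was absent there.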

Other observations

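Joining OCAB regions of any kind that lie within 100000 bp of each other, a description added after the data were seen, gave stretches in which OCAB-only regions were common and others in which they were few. The stretch with most OCAB regions lay on chromosome 22, 22380214 to 22786296, with 19, of which 3 were OCAB-only (15.8%) and 12 held OCT2. Its neighbour, 22901556 to 23230058, held 15 OCAB regions, 3 of them OCAB-only (20%), and 6 of the 15 held OCT2. As background, the immunoglobulin lambda locus is known to lie on the long arm of chromosome 22. The stretch on chromosome 14, 106994241 to 107281654, had 7 of 12 OCAB-only (58.3%), and that on chromosome 6, 25992852 to 26285454, had 7 of 15 (46.7%). OCT2 was held by 4 of the 12 and by 3 of the 15. The share of all OCAB regions that hold OCT2 was not computed, so the OCT2 counts are not read as a trait of these stretches. OCAB-only heights on chromosome 22 ran from 11.4 to 17.7 in the first stretch and from 17.1 to 39.3 in the second. The difference between these stretches was not tested, and they were picked for holding many OCAB regions.

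A shorter run of OCAB-only regions lay on chromosome 2, 89975456 to 90043731, beyond the run of 5 on that chromosome, and was chosen after its values were seen. Its 3 regions had heights from 18.2 to 23.4, and OCT2 peaks lay 47506 to 95650 bp away. Of the 14 runs with 3 or more OCAB-only regions, the only ones with an OCT2 peak within 1000 bp of a member were the run on chromosome 6 and a run of 3 on chromosome 10, 15490657 to 15546224, where 1 member had one at 211 bp.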
